A study of Mus musculus with 2 samples.

Results

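The glucocorticoid receptor gene *Nr3c1* and 9 genes known as glucocorticoid-induced were read in mouse embryonic fibroblasts (MEFs) that lacked or carried the transcription factor gene *BCL11B*, at 12 h of adipocyte differentiation. The 9 were *Fkbp5*, *Tsc22d3*, *Per1*, *Dusp1*, *Sgk1*, *Zbtb16*, *Mt1*, *Mt2* and *Errfi1*. Members were taken by symbol, as every probe set that the platform annotation paired with exactly 1 gene, which gave 10 of 18193 genes and 24 of 34945 probe sets. All 10 genes had at least 1 probe set with a mean of at least 5 log2 units, the floor used for counting genes, and 12331 genes in all did.

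The groups were BCL11B-/- MEFs and BCL11B+/+ MEFs, both primary cells from C57BL/6 embryos at embryonic day 12.5, used at passage 2, each hybridized to 1 Affymetrix mouse genome array. Both cultures had received the same differentiation medium, with 10% fetal bovine serum, 1 μM dexamethasone, 0.5 mM methylisobutylxanthine, 10 μM pioglitazone and 10 μg/ml insulin. The knockout was of the whole animal and not of a cell type, and the number of embryos behind each culture is not given in the sources used here. Every array came from cells with dexamethasone, so the values compare genotypes under the hormone and do not measure how far the hormone raised a gene.

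Dexamethasone is a synthetic glucocorticoid. It enters the cell and binds the glucocorticoid receptor, which waits in the cytoplasm in a complex with heat shock protein 90 and its co-chaperones, moves to the nucleus and binds palindromic response elements in DNA. There it raises genes that restrain inflammation, shift metabolism and dampen the receptor's own signal. In preadipocytes dexamethasone is 1 of the inducers that start adipogenesis, together with an agent that raises cyclic AMP, and several genes described here also respond to cyclic AMP, serum or metal ions.

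*Bcl11b* mRNA, the check of the labels, was 2.26- to 2.97-fold lower in the knockout culture on its 4 probe sets. The deleted exons are not given in the sources used here, so a probe set outside the deleted part would check nothing. The 12 fibroblast markers measured, such as *Col1a1* and *Pdgfra*, read 9.15 to 13.97 log2 units in BCL11B-/- MEFs and 9.26 to 14.06 in BCL11B+/+ MEFs. Among them *Thy1* alone reached 1.5-fold, at -0.65 log2 units (BCL11B-/- minus BCL11B+/+), and *Pdgfrb* was highest at 0.36. Of 10 macrophage markers above the floor, 8 reached 1.5-fold and all 8 were lower in BCL11B-/- MEFs, where 1.75% of all genes were lower. These were *Laptm5*, *Tyrobp*, *Lyz2*, *Csf1r*, *Ptprc*, *Cd68*, *Adgre1* and *Fcgr3*. The count was 5 of 9 with the mean over all probe sets of a gene and 5 of 8 with only unsuffixed probe sets. The 10 averaged 7.27 log2 units in BCL11B-/- MEFs and 7.97 in BCL11B+/+ MEFs, and *Itgam* and *Aif1* were under the floor in both. At least 1.5-fold higher in BCL11B-/- MEFs, where 1.61% of all genes were, stood 6 of 7 chondrocyte markers (*Sox9*, *Col11a1*, *Hapln1*, *Col9a1*, *Col2a1* and *Comp*) and 6 of 8 smooth muscle markers (*Cnn1*, *Acta2*, *Tpm2*, *Lmod1*, *Tagln* and *Myl9*). With the mean over all probe sets of a gene these counts were 4 of 6 and 4 of 8, and with only unsuffixed probe sets 5 of 6 and 4 of 6. As means *Sox9* (0.55), *Tpm2* (0.52) and *Acta2* (0.19) were under 1.5-fold. *Hapln1*, *Col2a1*, *Comp* and *Col9a1* read only 5.75 to 6.19 log2 units in BCL11B+/+ MEFs. With the floor at 7, 2 chondrocyte and 4 smooth muscle markers were left, all of them higher past 1.5-fold. Of 6 adipocyte markers *Lpl* and *Pparg* were lower past the rule, at -0.97 and -0.71, and at 1.2-fold 3 were higher and 3 lower. The higher ones were *Adipoq* (0.56), *Fabp4* (0.31) and *Slc2a4* (0.28). As means over all probe sets *Fabp4* (0.063) and *Slc2a4* (0.038) were under 1.2-fold, and *Lpl* stayed lower at -1.19. Of 8 epithelial and mesothelial markers *Lrrn4* was lower past the rule, at -0.62, and 3 were lower at 1.2-fold. At 1.2-fold 8.82% of all genes were higher and 7.8% were lower. *Xist*, a noncoding RNA made from the inactive X in female cells, read 4.80 log2 units in BCL11B-/- MEFs and 10.80 in BCL11B+/+ MEFs, and the Y-linked *Eif2s3y* read 8.97 in BCL11B-/- MEFs and 7.89 in BCL11B+/+ MEFs. So BCL11B+/+ MEFs gave both the female and the male reading above the floor, and BCL11B-/- MEFs gave only the male one. These readings differed along with genotype. With 1 array for each genotype the part of the embryos' sex cannot be told apart from that of genotype in the values that follow. The part of cell makeup was not tested, and in bulk RNA fewer cells of a type and less RNA per cell cannot be told apart.

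None of the 10 genes differed between BCL11B-/- and BCL11B+/+ MEFs by 1.5-fold in either direction when its brightest probe set was taken, nor did any of the 24 probe sets. At the same rule 1.61% of all 12331 genes were higher and 1.75% were lower in BCL11B-/- MEFs, so a count of 0 among 10 genes lies at the background. Differences of the members ran from -0.23 log2 units for *Zbtb16* to 0.28 for *Errfi1*. Of the 10 genes 7 were below 0 and 3 were above 0, and 48.5% of all genes were below 0. Their median difference was -0.087 log2 units, against 0.00 for all genes tested, and their median size was 0.113 log2 units, against 0.108 for all genes tested.

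At 1.2-fold, a looser rule, 1 member was higher in BCL11B-/- MEFs (*Errfi1*) and none was lower, where 8.82% of all genes were higher and 7.8% were lower. With 1 array for each genotype there is no error between cultures and no p-value, and the number of arrays limits the precision. As a technical yardstick, the differences that probe sets of the same gene gave had an SD of 0.145 log2 units, pooled over 5543 genes. By this yardstick *Errfi1*, *Zbtb16* and *Tsc22d3* differed by more than 1 SD and the other 7 genes by less, and 38% of all genes tested differed by more than 1 SD.

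**Figure D1:**
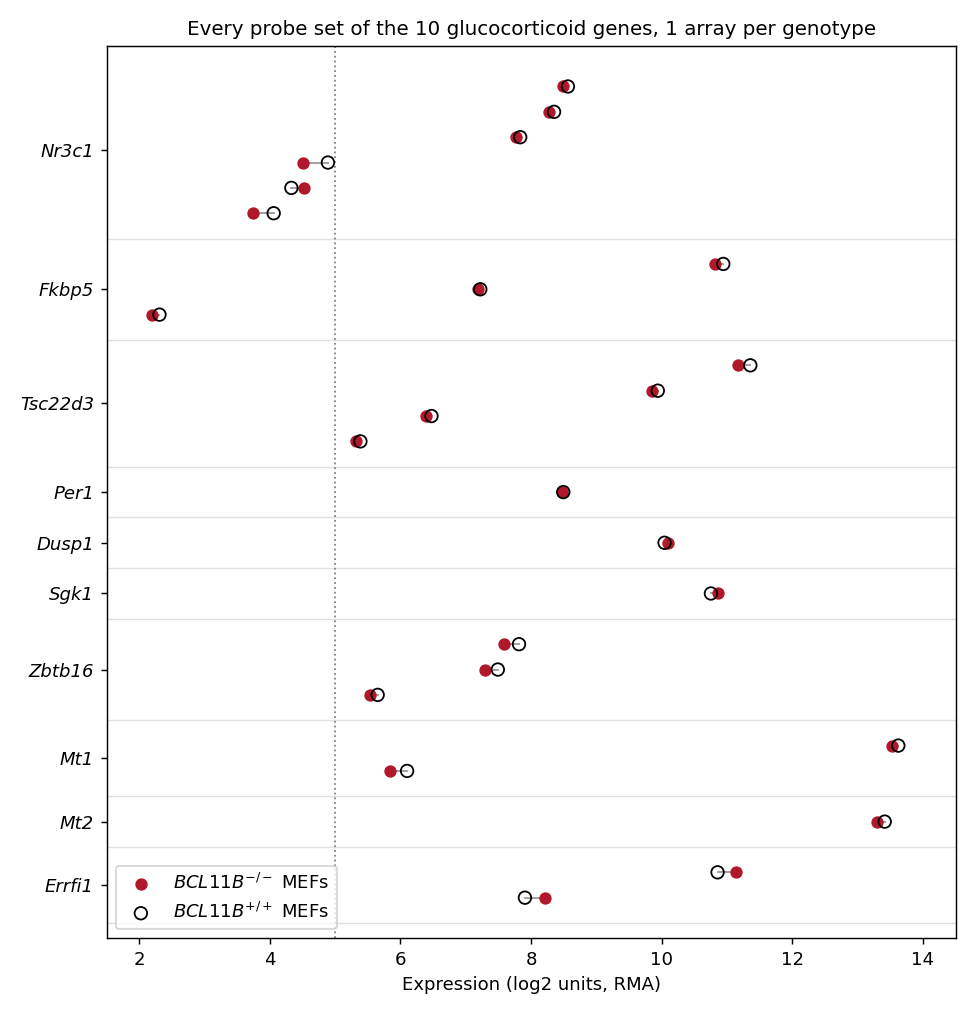
Expression (horizontal axis, log2 units after the robust multi-array average) of each of the 24 probe sets of the 10 genes (rows, brightest probe set of a gene on top) in BCL11B-/- MEFs (filled circles) and BCL11B+/+ MEFs (open circles). There was 1 array for each genotype, hence no error bars, and the dotted line is the floor of 5. The circles of a pair overlap for most probe sets, and the widest gap, 0.38 log2 units, is on a probe set of *Nr3c1* under the floor.

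*Nr3c1* encodes the glucocorticoid receptor itself, the protein that dexamethasone binds. Its brightest probe set read 8.49 log2 units in BCL11B-/- MEFs and 8.56 in BCL11B+/+ MEFs, which is 1.05-fold lower. The other probe sets above the floor read 8.27 and 7.77 in BCL11B-/- MEFs, against 8.35 and 7.83 in BCL11B+/+ MEFs, so all 3 bright probe sets gave differences between -0.081 and -0.065. The remaining 3 probe sets had means under 5 and did not agree in sign, with differences of -0.38, 0.20 and -0.32.

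*Fkbp5* encodes FKBP51, a co-chaperone that is induced by the receptor and in turn lowers the receptor's affinity for hormone. It read 10.81 log2 units in BCL11B-/- MEFs and 10.94 in BCL11B+/+ MEFs on its brightest probe set, a difference of -0.13, and 7.19 in BCL11B-/- MEFs and 7.22 in BCL11B+/+ MEFs on the next. Its last probe set lay far under the floor, at 2.19 in BCL11B-/- MEFs and 2.31 in BCL11B+/+ MEFs. All 3 differences were below 0 and within 1 SD between probe sets.

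Genes for the proteins that hold the receptor ready, and for those that act with it on chromatin, were also close between genotypes. Of 11 measured genes for heat shock protein 90 and other chaperones of the receptor, none reached 1.5-fold or 1.2-fold, with *St13* lowest at -0.11 log2 units and *Fkbp4* highest at 0.17 and a median of 0.030. Over all genes 1.61% were higher and 1.75% were lower at 1.5-fold, and 8.82% and 7.8% at 1.2-fold. At 1.5-fold a count of 0 among so few genes lies at the background. *Fkbp4*, which encodes the counterpart of FKBP51 that favors transport of the receptor to the nucleus, turned to -0.056 when all its probe sets were averaged. Of 11 measured coactivators and corepressors none reached 1.5-fold or 1.2-fold, from *Nrip1* at -0.16 to *Carm1*, an arginine methyltransferase gene, at 0.14, with a median of -0.081. Of 7 genes for steroid metabolism, efflux and related receptors none reached 1.5-fold. At 1.2-fold *Abcb1a* and *Abcb1b* were higher (28.6%) and *Pgr* was lower (14.3%). By more than 1 SD between probe sets differed 6 of the 7, against 38% of all genes. *Abcb1b* read 7.84 in BCL11B-/- MEFs and 7.45 in BCL11B+/+ MEFs, and differed by 0.19 as the mean over its probe sets. *Abcb1a*, which encodes an efflux pump that carries dexamethasone, was highest at 0.55, reading 5.28 in BCL11B-/- MEFs and 4.73 in BCL11B+/+ MEFs, close to the floor. Averaged over all its probe sets *Abcb1a* differed by 0.80, at a mean under the floor. *Pgr*, the progesterone receptor gene, was lowest at -0.35, reading 5.23 in BCL11B-/- MEFs and 5.59 in BCL11B+/+ MEFs, also close to the floor. Averaged over all its probe sets *Pgr* differed by -0.16, at a mean under the floor.

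*Tsc22d3* encodes GILZ, a leucine zipper protein through which glucocorticoids restrain inflammatory transcription factors and which opposes adipogenesis in cultured mouse cells. It read 11.17 log2 units in BCL11B-/- MEFs and 11.36 in BCL11B+/+ MEFs on its brightest probe set, a difference of -0.18. Its other probe sets read 9.85, 6.40 and 5.31 in BCL11B-/- MEFs, against 9.94, 6.48 and 5.39 in BCL11B+/+ MEFs. All 4 were lower in BCL11B-/- MEFs, and the 3 dimmer ones differed by -0.091 to -0.075 log2 units. *Tsc22d3* lies on the X chromosome, and the 397 genes of that chromosome above the floor had a median difference of 0.031, against 0.00 for 11874 autosomal genes.

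*Per1* encodes a repressor of the circadian clock that glucocorticoids use to reset the clock of peripheral cells. Its only probe set read 8.48 log2 units in BCL11B-/- MEFs and 8.49 in BCL11B+/+ MEFs, the smallest difference of the 10 genes at -0.018. Of 13 other clock genes above the floor none reached 1.5-fold, a rule that 1.61% of all genes passed upward and 1.75% downward. Below 0 were 11 of them, where 48.5% of all genes were, with a median of -0.077. *Hlf*, a gene for a transcription factor of the clock's output, was lowest at -0.39, and *Nfil3*, which encodes a repressor that binds the same sites, was highest at 0.39.

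*Dusp1* encodes a phosphatase that switches off p38, JNK and ERK kinases and is a route by which glucocorticoids quiet stress signals. Its only probe set read 10.10 log2 units in BCL11B-/- MEFs and 10.05 in BCL11B+/+ MEFs, a difference of 0.054. Of 17 phosphatase, *Spry* and immediate early genes above the floor none reached 1.5-fold, which 1.61% of all genes passed upward and 1.75% downward. At 1.2-fold 5 (29.4%) were lower and 1 (5.88%) was higher, where 7.8% and 8.82% of all genes were. The 5 lower genes, named after their values were seen, were *Fos*, *Atf3*, *Spry2*, *Egr1* and *Egr2*. By more than 1 SD between probe sets differed 12 of the 17, against 38% of all genes. Below 0 were 13 of the 17, where 48.5% of all genes were, with a median of -0.18. *Fos* was lowest at -0.45 and *Egr3* was highest at 0.53. As the mean over their probe sets *Egr3* differed by 0.25 and *Egr2*, a related immediate early gene, by -0.53. *Egr2* differed by -0.32 on its brightest probe set and by -0.73 on its other one, so 1 gene of the list was lower past 1.5-fold when only unsuffixed probe sets were taken.

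*Errfi1* encodes MIG6, an inhibitor that binds the active EGF receptor and is induced by growth factors as well as by glucocorticoids. It was the member with the largest difference, at 11.14 log2 units in BCL11B-/- MEFs and 10.86 in BCL11B+/+ MEFs, which is 1.22-fold higher. Its second probe set read 8.21 in BCL11B-/- MEFs and 7.91 in BCL11B+/+ MEFs, 1.23-fold higher, so both probe sets gave the same direction and nearly the same size. Of all genes tested 14.7% differed by more than this in either direction. Among 8 measured genes of the EGF receptor family and its ligands, *Lrig1*, whose product lowers EGF receptor levels, alone passed 1.5-fold. At that rule 1.61% of all genes were higher and 1.75% were lower. *Lrig1* read 7.56 in BCL11B-/- MEFs and 8.29 in BCL11B+/+ MEFs, a difference of -0.72 that shrank to -0.51, under 1.5-fold, when all its probe sets were averaged. *Egfr* was highest at 0.52, and at 0.29 as the mean over its probe sets.

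**Figure D2:**
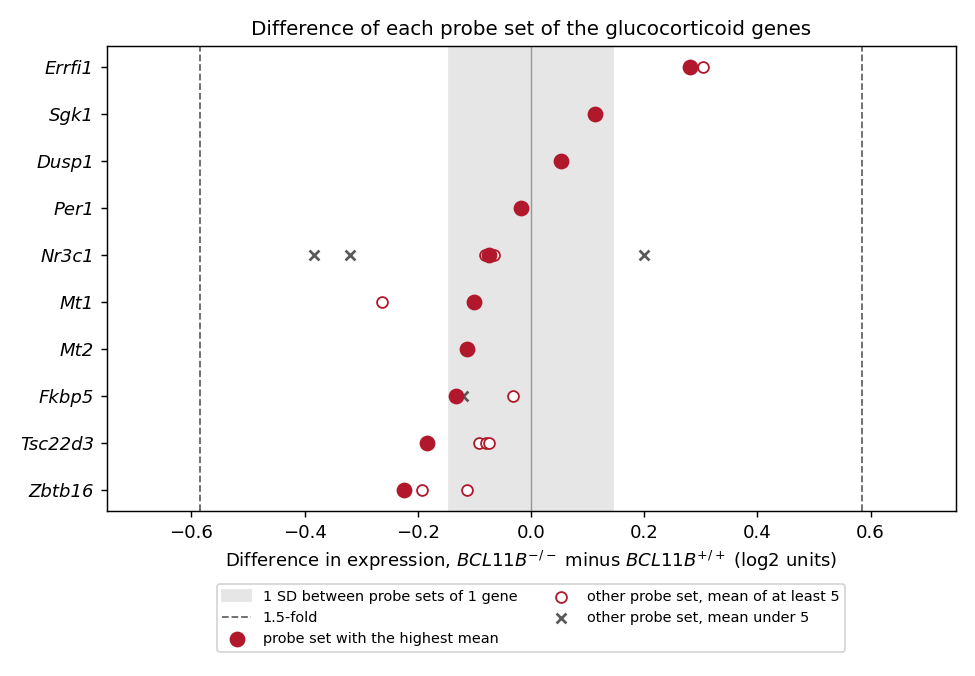
Difference (horizontal axis, BCL11B-/- minus BCL11B+/+ MEFs in log2 units) on every probe set of the 10 genes (rows, ordered by their brightest probe set, filled circles), with other probe sets above the floor as open circles and those under it as crosses. The grey band is 1 SD between probe sets of a gene (0.145) and the dashed lines are 1.5-fold; both *Errfi1* points lie right of the band, and no point reaches a dashed line.

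*Sgk1* encodes a kinase that is induced by serum and glucocorticoids and acts on ion channels and FOXO factors. Its only probe set read 10.87 log2 units in BCL11B-/- MEFs and 10.76 in BCL11B+/+ MEFs, a difference of 0.11 that is within 1 SD between probe sets. Of 9 measured related kinases and targets none reached 1.5-fold, from *Ndrg1*, whose product SGK1 phosphorylates, at -0.28 to its relative *Ndrg2* at 0.28. At that rule 1.61% of all genes were higher and 1.75% were lower. *Zbtb16* encodes PLZF, a zinc finger repressor that glucocorticoids induce strongly in several human cell types. It was the lowest member, at 7.59 log2 units in BCL11B-/- MEFs and 7.82 in BCL11B+/+ MEFs. Its other probe sets read 7.30 and 5.54 in BCL11B-/- MEFs, against 7.49 and 5.65 in BCL11B+/+ MEFs, so all 3 were lower, with differences from -0.23 to -0.11 log2 units.

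*Mt1* and *Mt2* encode metallothioneins, small cysteine-rich proteins that bind zinc and copper, and lie next to each other on chromosome 8. *Mt1* read 13.52 log2 units in BCL11B-/- MEFs and 13.62 in BCL11B+/+ MEFs. *Mt2* read 13.30 in BCL11B-/- MEFs and 13.42 in BCL11B+/+ MEFs. Their differences were nearly equal, at -0.10 and -0.11. These readings lie close to the highest value on either array, 14.15 in BCL11B-/- and 14.16 in BCL11B+/+ MEFs, where bright probes can respond less than in proportion. A second, much dimmer probe set of *Mt1* read 5.84 in BCL11B-/- MEFs and 6.10 in BCL11B+/+ MEFs, a difference of -0.26. The bright *Mt1* probe set carries the suffix that marks probes shared between transcripts, and the transcripts of the pair are similar, so the values of *Mt1* and *Mt2* may not be independent of each other. Of 10 other genes of metal and redox responses, 1 reached 1.5-fold: *Gclc*, a gene for glutathione synthesis, read 9.90 in BCL11B-/- MEFs and 9.31 in BCL11B+/+ MEFs, and *Hmox1*, the heme oxygenase gene, was lowest at -0.55. At that rule 1.61% of all genes were higher and 1.75% were lower. *Slc30a1*, a zinc exporter gene driven by the same metal-sensing factor as the metallothioneins, differed by 0.0064 and was picked out after its value was seen.

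**Figure D3:**
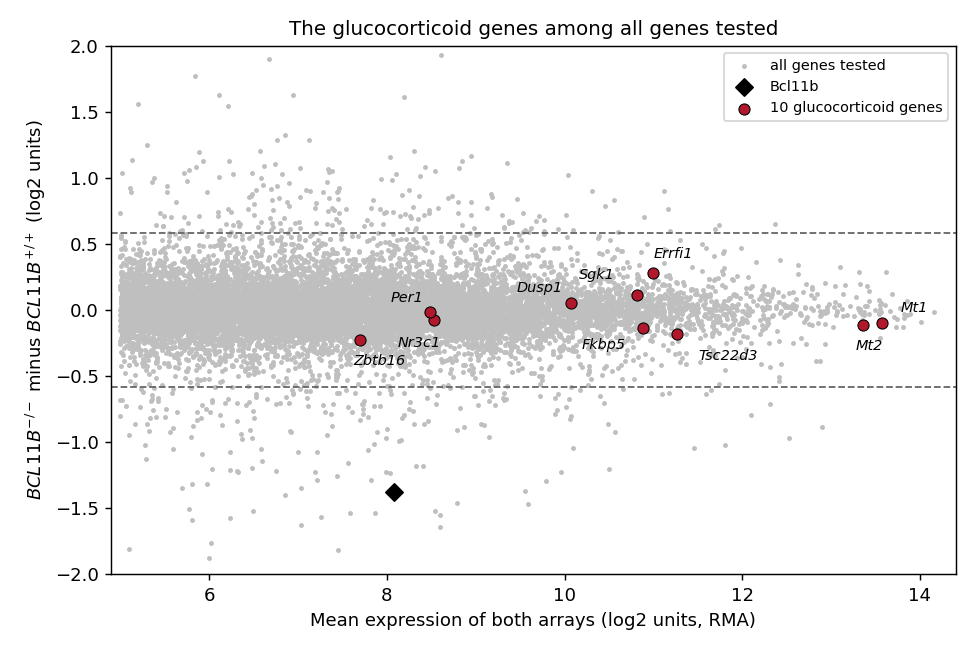
Difference between BCL11B-/- and BCL11B+/+ MEFs (vertical axis, log2 units) against mean expression of both arrays (horizontal axis, log2 units) for the 12331 genes tested (grey), the 10 glucocorticoid genes (red) and *Bcl11b* (black diamond), with dashed lines at 1.5-fold and 6 genes outside the vertical range. The red points lie inside the grey cloud between -0.23 and 0.28, and *Bcl11b* lies at -1.37.

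The promoters of the members were searched for the letters that the receptor, the cyclic AMP pathway and the metal sensor are known to read, in the RefSeq windows of mouse build GRCm38.p6 that run from 250 bases before to 50 after a start. The table matched 8 of the 10 genes with 17 windows, and *Nr3c1* and *Zbtb16* were not matched. The receptor's palindrome was searched as GNACA followed after any 3 bases by TGTNC, the cyclic AMP element as TGACGTCA and the metal element as TGCACNC or TGCGCNC, each on both strands. The receptor's palindrome was found in 2 of the 17 windows, against 0.475% of all 32851 windows, the cyclic AMP element in 2, against 1.79%, and the metal element in 5, against 25.7%. A match is a description of the letters and not of binding, and no match says only that these letters are not in this window. The windows of *Mt1*, *Mt2* and *Sgk1* are shown because they hold the receptor's palindrome or several metal elements, and those of *Dusp1* and *Errfi1* because they hold the cyclic AMP element. Capitals mark every match of these 3 motifs, and in *Sgk1* also the hexamer AGAACA on either strand, which 19% of all windows hold.
Mt1 (chr8:94178839-94179138, + strand): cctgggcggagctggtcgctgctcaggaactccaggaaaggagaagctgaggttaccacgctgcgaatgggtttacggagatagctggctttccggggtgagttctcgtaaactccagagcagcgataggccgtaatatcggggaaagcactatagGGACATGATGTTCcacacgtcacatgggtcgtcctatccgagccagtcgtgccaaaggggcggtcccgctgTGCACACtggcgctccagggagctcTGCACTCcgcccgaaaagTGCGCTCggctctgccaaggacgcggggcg
Mt2 (chr8:94172368-94172667, + strand): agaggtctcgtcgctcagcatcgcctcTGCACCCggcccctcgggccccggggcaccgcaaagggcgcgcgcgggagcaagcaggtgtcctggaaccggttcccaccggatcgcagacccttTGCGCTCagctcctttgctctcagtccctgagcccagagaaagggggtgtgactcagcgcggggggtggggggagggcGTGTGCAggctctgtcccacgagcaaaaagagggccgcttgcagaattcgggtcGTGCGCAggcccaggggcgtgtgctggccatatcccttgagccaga
Sgk1 (chr10:21993640-21993939, + strand): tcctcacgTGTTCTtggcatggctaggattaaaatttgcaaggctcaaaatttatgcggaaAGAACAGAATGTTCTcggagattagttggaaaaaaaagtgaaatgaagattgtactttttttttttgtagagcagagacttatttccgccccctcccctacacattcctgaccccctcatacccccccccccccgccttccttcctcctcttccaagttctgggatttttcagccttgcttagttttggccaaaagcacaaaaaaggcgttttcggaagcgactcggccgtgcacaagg
Dusp1 (chr17:26508423-26508722, - strand): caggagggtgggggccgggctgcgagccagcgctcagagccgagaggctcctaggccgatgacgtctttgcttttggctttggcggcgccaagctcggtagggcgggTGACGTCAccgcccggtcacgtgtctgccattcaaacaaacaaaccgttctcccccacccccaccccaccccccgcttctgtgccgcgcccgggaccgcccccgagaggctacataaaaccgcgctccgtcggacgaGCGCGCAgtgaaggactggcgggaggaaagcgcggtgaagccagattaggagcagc
Errfi1 (chr4:150854820-150855119, + strand): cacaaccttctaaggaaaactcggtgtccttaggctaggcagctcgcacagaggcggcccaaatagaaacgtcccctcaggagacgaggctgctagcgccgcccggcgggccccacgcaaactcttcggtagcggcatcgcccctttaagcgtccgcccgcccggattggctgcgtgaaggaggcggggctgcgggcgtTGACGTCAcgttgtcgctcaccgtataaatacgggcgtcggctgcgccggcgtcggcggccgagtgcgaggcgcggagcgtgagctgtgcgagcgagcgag

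In the *Mt1* window the receptor's palindrome began at -94, counted from the start at 1 with no 0, and 3 metal elements began at -23, 3 and 21. The *Mt2* window held 4 metal elements and no receptor palindrome, and 0.517% of all windows held at least 4. In *Sgk1*, which has 6 windows in the table, the fifth held an inverted pair of hexamers from -189, AGAACA followed after 3 bases by TGTTCT, which overlaps the shorter palindrome by construction and stood in 0.00913% of all windows. The cyclic AMP element began at -143 in *Dusp1* and at -51 in *Errfi1*, the 2 windows of the 17 that held it. The genes of these 5 windows differed between genotypes by -0.11 to 0.28 log2 units, as given above, with the receptor palindrome in a gene below 0 (*Mt1*) and in a gene above 0 (*Sgk1*). The differences of *Mt1* and *Sgk1* were both within 1 SD between probe sets, so their signs are not read as a direction.

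Of 25 other genes widely known as glucocorticoid-induced, 23 were above the floor. At 1.5-fold 1 of them was higher and 2 were lower in BCL11B-/- MEFs and 20 fell between, where 1.61% of all genes were higher and 1.75% were lower, with a median difference of -0.12 log2 units, against 0.00 over all genes. The lowest gene was *Angptl4*, which encodes an inhibitor of lipoprotein lipase, at 7.74 log2 units in BCL11B-/- MEFs and 8.92 in BCL11B+/+ MEFs. This rests on 1 suffixed probe set, as its other one read 2.41 in BCL11B-/- MEFs and 3.10 in BCL11B+/+ MEFs, under the floor. Next to *Angptl4* came *Cdkn1c*, a cell cycle inhibitor gene, at 11.96 in BCL11B-/- MEFs and 12.67 in BCL11B+/+ MEFs. The higher gene was *Pdk4*, which encodes a kinase that holds back glucose oxidation, at 9.21 in BCL11B-/- MEFs and 8.40 in BCL11B+/+ MEFs. *Angptl4* and *Pdk4* are also known targets of PPARs, the receptors that pioglitazone activates, and the study had picked out *Cdkn1c* on these same arrays. At 1.2-fold 7 of the 23 genes, or 30.4%, were lower in BCL11B-/- MEFs and 1 was higher, where 7.8% and 8.82% of all genes were. The list was chosen with earlier results of these data known, and *Cdkn1c* is among the 7, so this share is no independent support. The further 5 lower genes, named after their values were seen, were *Fam107a*, *Klf9*, *Arrdc2*, *Mgst1* and *Glul*. *Klf9*, a gene for a Krüppel-like factor that is a direct target of the receptor, read 11.76 in BCL11B-/- MEFs and 12.12 in BCL11B+/+ MEFs. Its mean difference over its probe sets was -0.24, under 1.2-fold. *Arrdc2* read 5.46 in BCL11B-/- MEFs and 5.82 in BCL11B+/+ MEFs, close to the floor.

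Inflammatory genes that glucocorticoids are known to restrain differed in both directions. Of 18 listed genes 11 were above the floor, of which 2 were higher and 3 lower in BCL11B-/- MEFs by the 1.5-fold rule and 6 fell between, where 1.61% of all genes were higher and 1.75% were lower, with a median of 0.086 log2 units. *Il6*, a cytokine gene, read 6.40 in BCL11B-/- MEFs and 5.31 in BCL11B+/+ MEFs, the latter close to the floor. The collagenase gene *Mmp13* read 8.56 in BCL11B-/- MEFs and 7.57 in BCL11B+/+ MEFs. The chemokine gene *Ccl7* read 6.05 in BCL11B-/- MEFs and 7.11 in BCL11B+/+ MEFs. The adhesion gene *Icam1* and the protease gene *Mmp3* were lower too, *Icam1* at 7.35 in BCL11B-/- MEFs and 8.36 in BCL11B+/+ MEFs and *Mmp3* at 5.89 in BCL11B-/- MEFs and 6.83 in BCL11B+/+ MEFs. The lower genes had differences of -1.05, -1.01 and -0.94, beside a median of -0.74 for the 10 macrophage markers in the same comparison. The higher genes had differences of 1.08 and 0.99, beside medians of 1.03 for the 7 chondrocyte markers and 0.67 for the 8 smooth muscle markers. The part of any cell type in the lower or the higher genes was not tested.

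**Figure D4:**
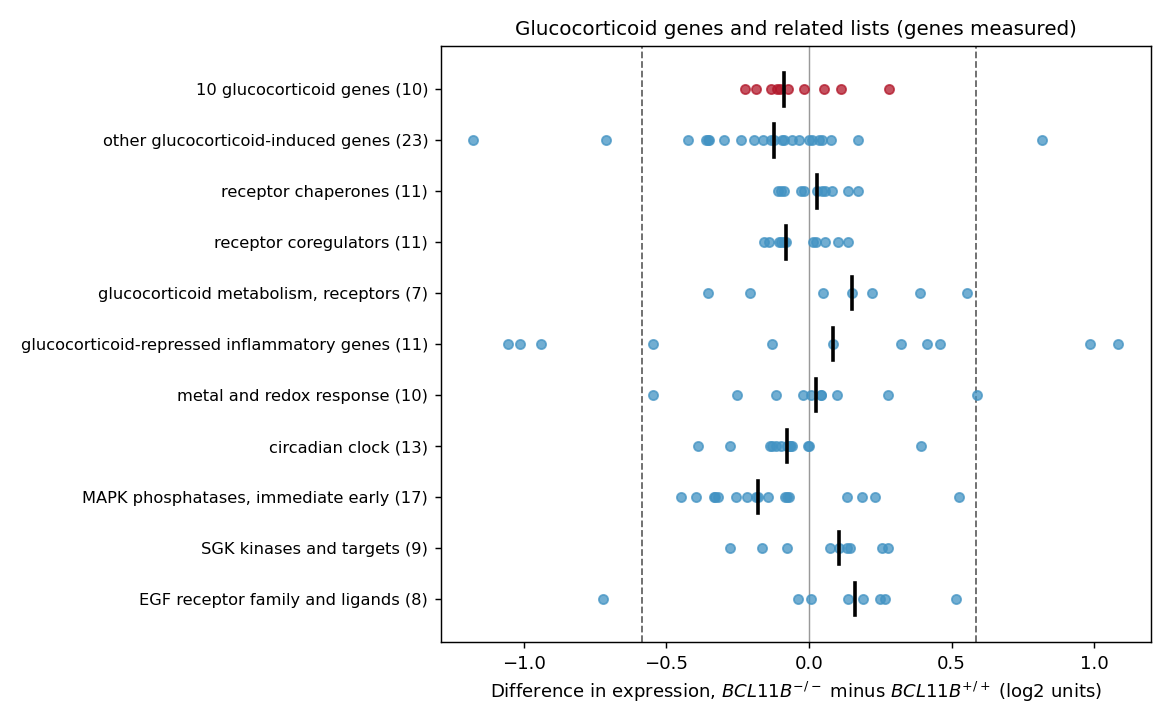
Difference between BCL11B-/- and BCL11B+/+ MEFs (horizontal axis, log2 units) of each measured gene of the 10 glucocorticoid genes (red, top row) and of related lists (blue, rows below, number of genes in brackets), with black bars at list medians and dashed lines at 1.5-fold. The members span -0.23 to 0.28, while the other glucocorticoid-induced genes span -1.18 to 0.82 and the inflammatory genes -1.05 to 1.08.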

How the data were processed

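Total RNA of BCL11B-/- and BCL11B+/+ MEFs was measured on 1 array each. The authors amplified 100 ng of RNA and used the robust multi-array average on the scanned intensities, and the submitters' processing notes name R 3.0.3, so the deposited values are log2 expression, background-corrected and normalized between arrays. Such normalization hides a change of total mRNA, and background pulls differences of dim probe sets toward 0. A genome build is not given in the sources used here, and RefSeq tables of GRCm38.p6 were used for chromosomes and promoters only.

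The difference was BCL11B-/- minus BCL11B+/+. Each gene was represented by its brightest probe set over both arrays, and those averaging at least 5 were counted at 1.5-fold. No test was possible with 1 array for each genotype. Of 45101 probe sets, 64 controls were left out, and 932 paired with several genes and 9211 paired with none were not used. Named genes were all members, and of each further list its genes past 1.5-fold, otherwise its highest and lowest. *Hmox1*, *Egfr*, *Egr2*, *Pdgfrb*, *Col1a1*, *Pdgfra*, *Abcb1b*, *Adipoq*, *Fabp4* and *Slc2a4* were added after their values were seen. The members and lists were chosen with earlier results of these data known. Listed genes without a probe set paired with 1 gene were not analysed here. The counting was tested on simulated data. Alternatives were the mean over probe sets, only probe sets with no suffix letter (_x, _s, _a), a loess fit with a span of 0.4, the median subtracted, other floors and other folds. Python 3.11.15, numpy 2.4.6, pandas 2.3.3 and statsmodels 0.14.6 were used.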

Additional observations from a re-analysis of the deposited data

How the results depend on the processing

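The member genes' counts at 1.5-fold stayed at 0 in each direction under every alternative for probe sets, normalization and floor, and their median ran from -0.10 with the mean over all probe sets to -0.075 without suffixed probe sets. No floor used could change these counts, because the dimmest member, *Zbtb16*, averaged 7.70. At 1.2-fold 1 member was higher. Of 40 alternative values of the members 39 moved by less than the SD between probe sets, and *Mt1* moved to -0.26 without suffixed probe sets, on its dim probe set. Many of the 40 could barely move. The median subtracted was 0.00 and the loess correction of a member was at most 0.0084. *Per1*, *Dusp1*, *Sgk1* and *Mt2* have only 1 probe set each. The brightest probe sets of *Nr3c1*, *Fkbp5*, *Zbtb16* and *Errfi1* had no suffix, so leaving out suffixed ones left these genes unchanged. With the floor at 7, 112 of all genes were higher and 124 were lower. At 1.2-fold 1087 were higher and 962 were lower, and at 2-fold 43 were higher and 62 were lower. Among other glucocorticoid-induced genes 1 was lower without suffixed probe sets, 7 were lower at 1.2-fold, and 1 was lower and 0 were higher at 2-fold. Without suffixed probe sets *Angptl4* left the count, because its unsuffixed probe set averaged 2.75, under the floor. Among inflammatory genes 1 was higher and 1 lower with the floor at 7, 5 were higher and 4 lower at 1.2-fold, and 1 was higher and 2 were lower at 2-fold. With the floor at 7 *Il6*, *Ccl7* and *Mmp3* left the count, as their means were 5.85, 6.58 and 6.36. Stricter rules count fewer genes by construction, and beyond the loss of these 3 and of *Angptl4* the cause of the other changes was not tested. Of 91 alternative values of other named genes 86 moved by less than the SD between probe sets and none past 1.5-fold changed sign. For the remaining lists 81 of 89 medians moved by less than that SD, and 210 of 240 counts stayed the same or within 1.5 times. Many of these counts were 0 at the main rule, so a stricter fold or a higher floor could not move them. The median subtracted, 0.00, could move none of these values. No paired analysis was possible because each genotype had 1 array. Bright *Mt1* and *Mt2* probe sets near the top of the scale, and probe sets near the floor of 5, limit what these arrays can show.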
